A study of Mus musculus with 7 samples.

Results

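The cytosolic ribosomal protein genes were 79 of the 35976 genes in the count table. They were taken by symbol, as Rpl or Rps followed by digits and an optional a, l, x or y, together with Rplp0, Rplp1, Rplp2 and Rpsa, and were kept at 100 or more counts over all libraries. Pseudogene symbols with -ps and the Rps6k kinases were left out. Of the 82 genes that matched, 44 of the large (60S) subunit, 3 of its stalk and 32 of the small (40S) subunit were kept. The 3 genes under the minimum were Rpl3l with 9 counts, Rpl39l with 5 and Rpl10l with 0.

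Each cytosolic ribosome joins a small subunit, which holds the messenger RNA and decodes it, to a large subunit, which forms the peptide bond. Ribosomal proteins are made in near-equal amounts, and their messenger RNAs are translated together under control of mTOR, through a run of pyrimidines at the very start of the transcript known as the 5′ TOP motif. The genome holds many processed pseudogenes of these genes, which are near copies of the spliced messenger RNA.

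All mice were male C57BL/6J. Adeno-associated virus carried Cas9 under the astrocyte promoter GfaABC1D into the amygdala, with a guide against Egfr (sgEgfr, 3 libraries) or against the Rosa locus as the control (sgRosa, 4 libraries). Every mouse, controls included, had at least 2 weeks of expression, then tube restraint over 7 days, fear conditioning on 1 day and extinction training over 3 days. ACSA-2, an antigen on the surface of astrocytes, was used to pull cells out with beads, and each library was made from 5 ng of their RNA. The labels do not say whether the libraries came from separate or pooled mice, so the p-values measure the spread between these libraries, which may be technical.

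The libraries held 5852870 to 22579222 counts. sgRosa 3 and sgRosa 4 were near-duplicates, close to sampling noise (chi-square 1.04 per degree of freedom, against 14.8 to 158 for the 20 other pairs of libraries), and they were summed to 1 sample, sgRosa 3+4. Each guide then had 3 samples. Egfr, the targeted gene, stood at 13.3, 2.87 and 10.6 CPM (a count relative to the scaled library total) in sgRosa 1, 2 and 3+4, against 10.7, 5.69 and 8.04 CPM in the sgEgfr samples. Its log2 fold change was -0.13 (SE 0.54), with overlapping groups, so the label of the guide was not checked by the level of its target. The 20 astrocyte markers took 1.30% to 2.89% of counts, and the 15 oligodendrocyte markers took 8.57% to 15.9%.

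RefSeq (GRCm38.p6) start sites were found for 58 of the 79 genes. The sequences printed here show the stretch from 45 bases before the start to 15 bases into the transcript, for 6 of the genes with the smallest unadjusted p between the guides, and for Rpl4, the gene with the most counts, and Rpl38, one of the short genes described below. Rpl4 and Rpl38 were chosen after their values were seen. Capitals mark every C followed by at least 7 further C or T on the sense strand. The stretch of Rps15a holds 2 such runs.
Rpl9 (chr5:65391417-65391476, minus strand): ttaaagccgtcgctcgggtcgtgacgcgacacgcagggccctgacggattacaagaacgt
Rps15a (chr7:118116133-118116192, minus strand): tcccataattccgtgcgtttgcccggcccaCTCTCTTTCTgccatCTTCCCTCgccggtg
Rps23 (chr13:90923077-90923136, plus strand): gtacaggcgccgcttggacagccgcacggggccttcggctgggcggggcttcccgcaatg
Rpl13 (chr8:123102305-123102364, plus strand): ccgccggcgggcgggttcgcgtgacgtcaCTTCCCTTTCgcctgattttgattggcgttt
Rplp0 (chr5:115559422-115559481, plus strand): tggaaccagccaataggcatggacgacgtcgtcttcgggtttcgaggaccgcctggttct
Rpl24 (chr16:55966230-55966289, plus strand): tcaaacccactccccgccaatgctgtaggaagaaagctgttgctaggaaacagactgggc
Rpl4 (chr9:64173342-64173401, plus strand): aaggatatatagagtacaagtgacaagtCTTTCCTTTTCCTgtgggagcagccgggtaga
Rpl38 (chr11:114668535-114668594, plus strand): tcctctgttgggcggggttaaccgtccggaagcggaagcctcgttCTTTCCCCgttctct

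Such a pyrimidine run lay within 25 bases of the annotated start in 32 of the 58 genes (55.2%), against 17.7% of 27025 genes in the same table. Of shorter stretches on the sense strand in that window, CTTTCC was found in 17.2% of the 58 and 2.92% of all genes, and CTCTTT in 15.5% and 2.25%; both can overlap the run. Over the whole 300 bases and on either strand, CCGGAA, the core that ETS factors such as GABPA bind, was found in 55.2% of the 58 and 16.7% of all. AAGATGG, a core of the YY1 motif, was found in 15.5% and 7.28%. TATAAA was found in 12.1% and 15.7%. A match is a description of these letters in this window, and an annotated start can lie some bases from the start used in these cells.

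The 79 genes together took a larger share of counts in sgEgfr on average, but the groups overlapped. The summed share was 0.372% in sgRosa 1, 0.410% in sgRosa 2 and 0.545% in sgRosa 3+4, and 0.576%, 0.616% and 0.486% in sgEgfr 1, 2 and 3. sgRosa 3+4 therefore lay above sgEgfr 3, and sgRosa 1 and 2 lay below all other samples. The mean was 0.442% ± 0.0907 in sgRosa and 0.559% ± 0.0665 in sgEgfr (SD, n = 3 each), a difference of 0.117 percentage points. Without sgRosa 1 and sgEgfr 2, the samples at either end, it was 0.0535 points. Counting error is small beside this spread, since the 95% Wilson interval ran from 0.369% to 0.376% in sgRosa 1 and from 0.612% to 0.620% in sgEgfr 2. The 2 libraries summed to 1 sample each gave about 0.545%. In each class the sgEgfr mean was the higher, at 0.309% against 0.246% for the large subunit, 0.0301% against 0.0245% for the stalk and 0.220% against 0.172% for the small subunit. The share is not scaled between samples and also moves with what other genes take.

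**Figure D1:**
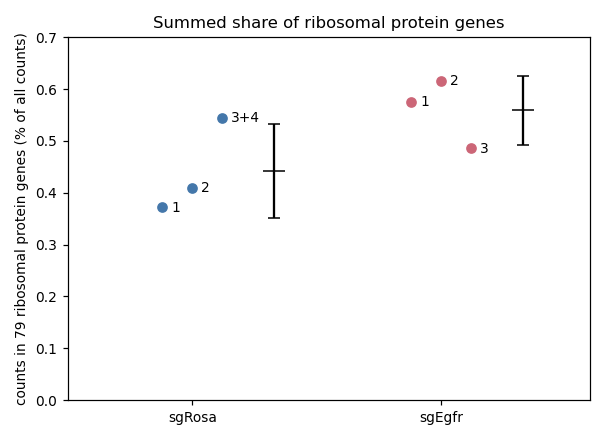
Summed counts of the 79 ribosomal protein genes as a percent of all counts of each sample (points, numbered by replicate), with mean and SD of each guide (bars, n = 3). sgRosa 3+4, at 0.545%, lies above sgEgfr 3, at 0.486%.

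Gene by gene, 75 of the 79 had a positive log2 fold change (sgEgfr against sgRosa) and 4 a negative one. Of the 14936 genes tested, 52.9% were positive. The median was 0.36 over the 79 genes and 0.02 over all genes tested. All 79 passed the filter on low counts. None was called at an adjusted p under 0.05 (edgeR quasi-likelihood test, Benjamini-Hochberg over all genes tested, adjusted p = 0.997), and neither was any other gene, so that the background of calls was 0%. At an unadjusted p under 0.05, 2 of the 79 were higher in sgEgfr and 0 lower, where 1.31% of all genes tested were higher. DESeq2 gave 5 of the 79 higher (1.76% of all genes), limma-voom 4 (1.48%) and limma-voom with quality weights 13 (2.67%), and none of the 3 called a gene. Over all genes tested, 401 had an unadjusted p under 0.05 in either direction with edgeR, 500 with DESeq2, 418 with limma-voom and 793 with quality weights. The count of 2 among the 79 was 40 without sgRosa 3 and 4, where 3.42% of all genes were higher at that threshold, and 19 without sgEgfr 3, where 1.69% were. It was 0 without sgRosa 1, sgRosa 2, sgEgfr 1 or sgEgfr 2, where 0.974%, 1.64%, 0.923% and 1.24% of all genes were higher. In 3 of the 79 every sgEgfr sample lay above every sgRosa sample, near the 3.76% of all genes tested for which this held. The median was 0.20 without sgEgfr 2, the sample with the highest share, and stood at 0.54 without sgRosa 3 and 4. Without sgRosa 1 and sgEgfr 2, the lowest and the highest sample, a choice made after seeing the data, it was 0.12, with 70 genes positive.

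**Figure D2:**
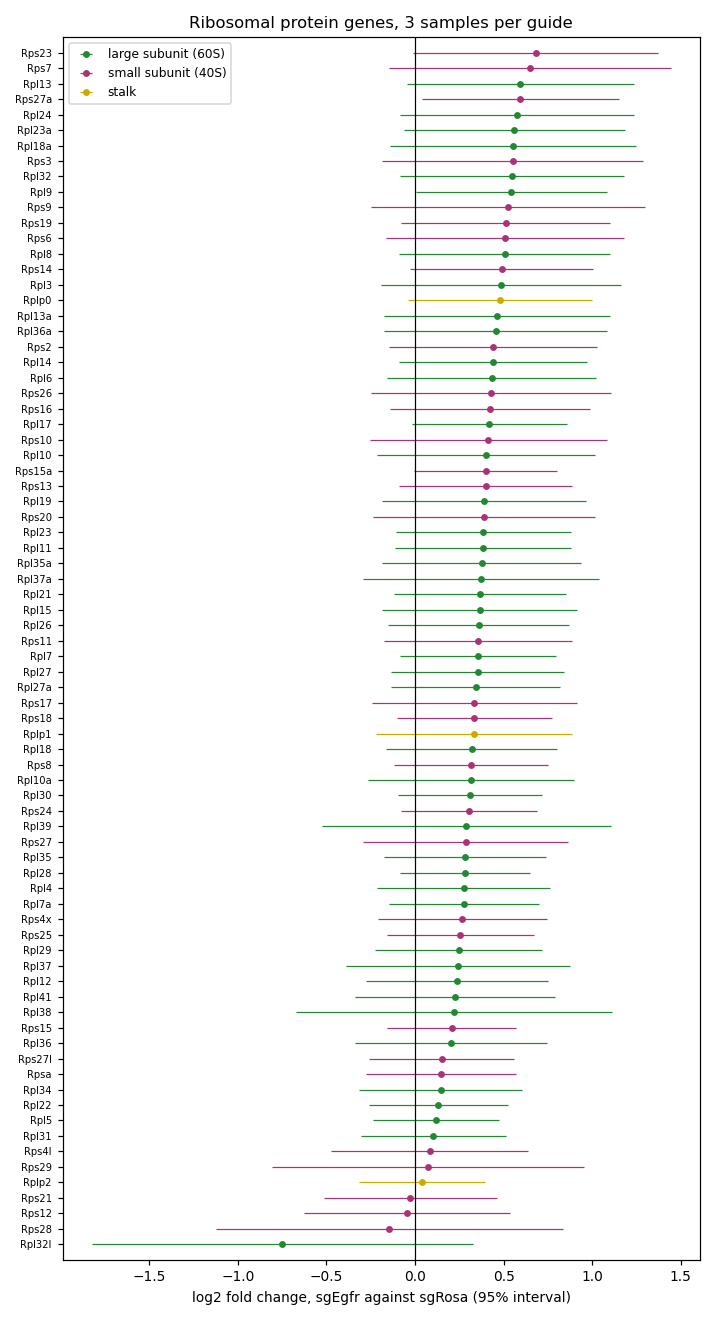
Log2 fold change of 78 of the 79 ribosomal protein genes, sgEgfr against sgRosa, with its 95% interval from edgeR (3 samples per guide), coloured by subunit. Points lie left of 0 for 4 genes, and the intervals of Rps27a and Rpl9 lie wholly above 0.

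The small subunit genes had a median log2 fold change of 0.37, with 29 of 32 positive. Rps27a, which encodes a fusion of ubiquitin and a small subunit protein (chr11:29545842-29548040), stood at 49.8, 60.8 and 81.5 CPM in sgRosa 1, 2 and 3+4, against 93.5, 120 and 76.4 CPM with sgEgfr 1 to 3. Only sgRosa 3+4 reached into the sgEgfr range, above sgEgfr 3. Its log2 fold change was 0.59 (SE 0.24, unadjusted p = 0.0393, adjusted p = 0.997 by edgeR). Rps23, a protein of the decoding centre, had the largest log2 fold change, 0.68 (SE 0.30), from 22.0, 33.4 and 47.2 CPM with sgRosa against 54.6, 67.5 and 42.5 CPM with sgEgfr. Again sgEgfr 3 lay below sgRosa 3+4 and above the other sgRosa samples. Rps7 ran at 31.2, 29.8 and 54.0 CPM with sgRosa against 50.3, 88.4 and 41.7 CPM with sgEgfr (log2 fold change 0.65, SE 0.34). Here sgRosa 3+4 exceeded sgEgfr 1 as well as sgEgfr 3.

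Rps15a was a gene whose groups did not overlap. It stood at 21.0, 21.9 and 27.2 CPM with sgRosa against 33.3, 31.7 and 27.6 CPM with sgEgfr, with a gap of less than 1 CPM between sgRosa 3+4 and sgEgfr 3 (log2 fold change 0.40, SE 0.17, unadjusted p = 0.0517 by edgeR). Rpsa, which encodes a small subunit protein also described as a laminin receptor, differed little, at 65.7, 53.0 and 74.7 CPM with sgRosa against 67.0, 83.0 and 64.2 CPM with sgEgfr (log2 fold change 0.15, SE 0.18). Rps14, a protein of the platform of the small subunit, had 137, 142 and 215 CPM with sgRosa against 224, 266 and 205 CPM with sgEgfr (log2 fold change 0.49, SE 0.22). As for Rps23, its sgRosa 3+4 value exceeded that of sgEgfr 3 and of no other sgEgfr sample.

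The 3 small subunit genes with a negative value were Rps28, Rps12 and Rps21, and none differed beyond its error. Rps28 stood at 6.35, 14.999 and 11.3 CPM with sgRosa against 13.6, 5.83 and 10.1 CPM with sgEgfr (log2 fold change -0.14, SE 0.42). Its lowest samples were sgEgfr 2 and sgRosa 1, and its highest was sgRosa 2. The log2 fold change was -0.05 (SE 0.25) for Rps12 and -0.03 (SE 0.21) for Rps21. All 3 changed sign when single libraries were left out.

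The large subunit genes had a median log2 fold change of 0.36, with 43 of 44 positive. Rpl9, whose protein sits near the base of the stalk (chr5:65388364-65391431), stood at 59.6, 56.0 and 87.9 CPM with sgRosa against 87.3, 123 and 86.0 CPM with sgEgfr. sgRosa 3+4 lay just above sgEgfr 1 and 3, and only sgEgfr 2 lay apart. The log2 fold change was 0.54 (SE 0.23, unadjusted p = 0.0491, adjusted p = 0.997 by edgeR). Rpl13 had 99.6, 94.1 and 154 CPM with sgRosa against 159, 232 and 134 CPM with sgEgfr (log2 fold change 0.59, SE 0.27). Rpl17, a protein at the exit of the peptide tunnel, had 23.8, 21.3 and 25.9 CPM with sgRosa against 31.8, 37.5 and 25.7 CPM with sgEgfr (log2 fold change 0.42, SE 0.19). In both, sgEgfr 3 was below sgRosa 3+4. The other genes whose groups did not overlap, Rpl28 and Rpl27a, had log2 fold changes of 0.28 (SE 0.16) and 0.34 (SE 0.21).

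Rpl32l was the only one of the 79 lower in every sgEgfr sample, which held for 3.85% of all genes tested. It stood at 1.41, 2.09 and 1.145 CPM with sgRosa against 1.141, 0.655 and 0.962 CPM with sgEgfr (log2 fold change -0.75, SE 0.46). sgRosa 3+4 and sgEgfr 1 were nearly equal, and the gene had 128 counts over all 7 libraries. RefSeq lists it as protein coding (chr10:20208439-20209030), and GENCODE M21 as a processed pseudogene.

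The stalk, which recruits the elongation factors, is built of the proteins of Rplp0, Rplp1 and Rplp2. Rplp0 stood at 103, 115 and 147 CPM with sgRosa against 142, 217 and 151 CPM with sgEgfr (log2 fold change 0.48, SE 0.22). Rplp1 stood at 57.9, 50.8 and 86.0 CPM and at 79.01, 98.1 and 67.9 CPM (log2 fold change 0.33, SE 0.24). Rplp2, whose protein pairs with that of Rplp1, stood at 48.0, 54.9 and 61.5 CPM and at 61.1, 51.3 and 56.8 CPM (log2 fold change 0.04, SE 0.15). For Rplp0 and Rplp1 the highest sample was sgEgfr 2, and for Rplp2 that sample was the lowest of sgEgfr.

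The median of the 79 genes, as log2(CPM + 0.5) minus each gene's mean over the 6 samples, was -0.38 in sgRosa 1, -0.32 in sgRosa 2 and 0.16 in sgRosa 3+4. It was 0.17, 0.41 and -0.02 in sgEgfr 1, 2 and 3. sgRosa 3+4 thus stood beside sgEgfr 1, and it lay above sgEgfr 3 in 71 of the 79 genes and above sgEgfr 1 in 37. The highest sample was sgEgfr 2 for 55 genes, and the lowest was sgRosa 1 for 45 and sgRosa 2 for 30. sgEgfr 2 lay above every sgRosa sample in 59 genes, sgEgfr 1 in 40 and sgEgfr 3 in 7. The coefficient of variation within a guide had a median of 24.3% in sgRosa and 18.7% in sgEgfr over the 79 genes, close to the 22.9% and 19.8% of all genes tested.

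The pattern over samples differed with coding length, the length of the coding sequence of a single transcript chosen per gene. In GENCODE M21, 77 of the genes had such a length. The transcript was chosen by its annotation (principal isoform, consensus coding sequence, support level), and by greater coding length only among equals. The 3 classes by length were formed after the values were seen. The 26 shortest (75 to 399 nt) had a median log2 fold change of 0.25 with 23 positive, the 26 in the middle (405 to 564 nt) 0.38 with all 26 positive, and the 25 longest (576 to 1257 nt) 0.44 with all 25 positive. Other genes of the same lengths had medians of 0.12, 0.11 and 0.06, with 70.6%, 66.4% and 58.8% positive. In sgEgfr 2 the median deviation of the ribosomal protein genes was 0.06 in the short class, 0.46 in the middle and 0.62 in the long one. sgEgfr 1 had the opposite order, 0.28, 0.21 and 0.08. sgEgfr 2 was the highest sample for 7 of 26 short genes, 25 of 26 in the middle and 23 of 25 long ones.

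Across the 77 genes, which share libraries and are not independent replicates, Spearman's rho of coding length with the deviation was 0.66 in sgEgfr 2 (Pearson's r with log2 length 0.69). It was -0.63 in sgEgfr 1, -0.47 in sgEgfr 3, -0.47 in sgRosa 2, -0.31 in sgRosa 3+4 and 0.27 in sgRosa 1. Over 5617 other genes of the same length range, rho lay between -0.11 and 0.07 in all 6 samples. Those genes were not matched for level, and 4190 of them were in the long class against 606 in the short one. Whether the pattern is particular to the ribosomal protein genes was therefore not tested. With the log2 fold change itself rho was 0.42 (r 0.40, n = 77), and it was -0.32 (r -0.38) without sgEgfr 2, so that its sign rested on that sample. Without sgEgfr 2 the medians of the 3 classes were 0.24, 0.24 and 0.17. Among the shortest genes, described here after their values were seen, Rpl38 stood at 11.5, 26.5 and 26.6 CPM with sgRosa against 33.2, 15.9 and 26.2 CPM with sgEgfr. Rps29 stood at 14.7, 37.7 and 35.9 CPM and at 37.0, 20.7 and 35.2 CPM. As for Rps28, the low samples were sgRosa 1 and sgEgfr 2.

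**Figure D3:**
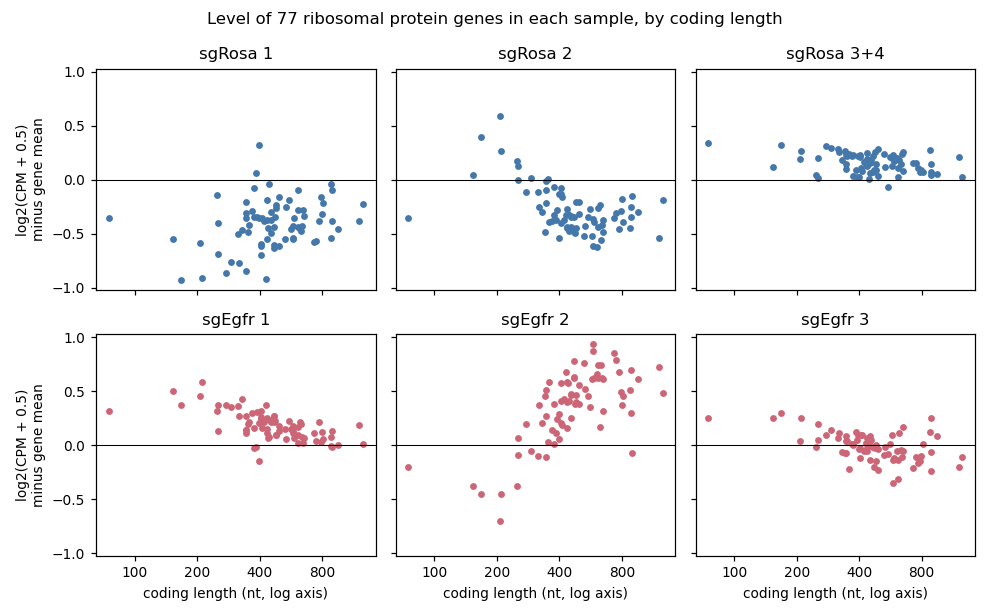
Level of 77 ribosomal protein genes in each of the 6 samples, as log2(CPM + 0.5) minus the gene's mean, against coding length in nt (log axis); each point is a gene. In sgEgfr 2 the values tend to rise with coding length, and in sgEgfr 1 they tend to fall.

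Per kilobase of coding length, the mean level over the 6 samples had a median of 111 CPM. Rpl41, which encodes the smallest ribosomal protein from 75 nt of coding sequence, had the highest value at 752 CPM per kb. The length leaves out the untranslated parts, while the counts are per gene and can include reads from them. The CPM of Rpl41 was 43.2, 43.0 and 69.8 in sgRosa and 68.9, 47.8 and 65.7 in sgEgfr. Rps14 followed at 438, Rps27 at 310 and Rpl13a at 298 CPM per kb. The lowest were Rpl10a at 26.3 and Rpl12 at 37.5 CPM per kb. In Rpl13a, whose protein also takes part in translational silencing in myeloid cells, CPM was 144, 113 and 201 in sgRosa and 187, 276 and 168 in sgEgfr (log2 fold change 0.46, SE 0.27).

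Such levels depend on how reads that match several genes were counted, which is not given in the sources used here. Of all stretches of 50 bases in a gene's coding sequence, a median of 93.0% also occurred in the transcripts of another gene of GENCODE M21. In 29 of the 77 genes every stretch did so, and in 11 fewer than 50% did. The level per kilobase had a median of 168 CPM in those 11 genes and 99.4 CPM in the other 66, and it was lower at a higher shared percentage (rho -0.38, r -0.39, n = 77, a description over genes in the same libraries). For the guides, the median log2 fold change was 0.36 in the former, with 10 of 11 positive, and 0.36 in the latter, with 64 of 66 positive.

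**Figure D4:**
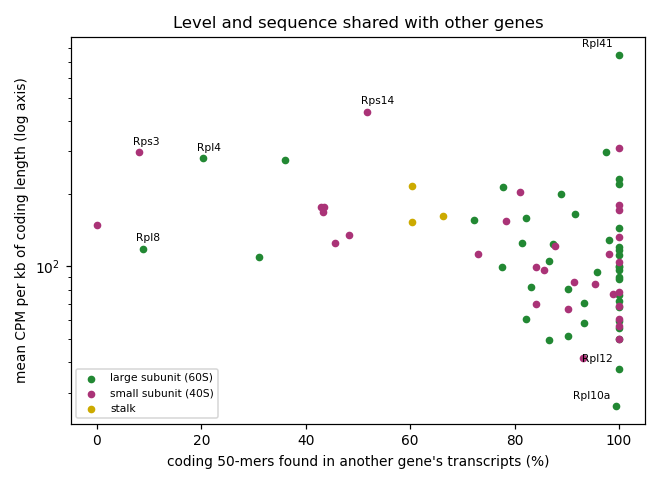
Mean level over 6 samples in CPM per kilobase of coding length (log axis) against the percent of coding stretches of 50 bases that also occur in another gene, for 77 ribosomal protein genes coloured by subunit. The 11 genes below 50% have a median of 168 CPM per kb and the other 66 a median of 99.4.

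Some ribosomal proteins have a second gene, and the ratio of the copies is free of scaling between samples. Of 8 pairs, 5 had at least 20 counts of both genes in every sample. The ratios overlapped between the guides in all 5, and an exact two-sided permutation test, which cannot go below p = 0.1 with 3 against 3, gave p = 0.2 to 1 (adjusted over the 5 pairs, 0.75 to 1). Per 100 counts of Rps27 there were 54.3, 48.8 and 39.0 of Rps27l, a copy induced by p53, in sgRosa and 37.7, 49.7 and 40.1 in sgEgfr. Per 100 of Rpl22 there were 24.5, 45.6 and 33.9 of Rpl22l1 in sgRosa and 46.1, 48.3 and 29.5 in sgEgfr. Per 100 of Rpl36a there were 52.6, 52.7 and 50.7 of Rpl36al in sgRosa and 52.2, 50.6 and 42.9 in sgEgfr.

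Rpl7l1 stood at 57.0, 72.8 and 59.4 per 100 of Rpl7 in sgRosa and at 64.0, 43.7 and 60.7 in sgEgfr. Rps4l, which both RefSeq and GENCODE list as a transcribed pseudogene (chr6:148354656-148355596), stood at 28.4, 25.6 and 28.2 per 100 of the X-linked Rps4x in sgRosa and at 30.1, 16.3 and 29.8 in sgEgfr. In both pairs sgEgfr 2 was the low sample. The difference of the mean log2 ratio was -0.16 for Rps4l, and 0.13 without sgEgfr 2. The copies known from testis or muscle were near absent. Rpl39l had counts in 2 libraries only, 3 in sgEgfr 2 and 2 in sgEgfr 3. Rpl3l had 5 in sgRosa 1, 1 in sgRosa 2 and 3 in sgEgfr 1. Rpl10l had 0 of 102946917 counts, which allows a level of up to 0.0291 CPM.

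Where the pyrimidine run was found at the start site, the median log2 fold change was 0.31 with 30 of 32 positive, and where it was not, 0.39 with 24 of 26 positive. The difference between these medians was not tested.

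Other genes of translation were compared from lists, and none of their genes was called (edgeR, adjusted p = 0.997 at the lowest). The ribosome-associated genes, which include Rps3a1 (a small subunit protein outside the symbol pattern) and Naca (of the complex that meets nascent chains), were positive in 10 of 10, with a median log2 fold change of 0.31. Rps3a1 had 54.0, 59.7 and 84.0 CPM with sgRosa against 78.6, 130 and 76.7 CPM with sgEgfr (log2 fold change 0.53, SE 0.26), and its highest sample was sgEgfr 2. Naca had a log2 fold change of 0.39 (SE 0.21). Host genes of small nucleolar RNAs, whose transcripts also start with pyrimidine runs, were positive in 6 of 8, with a median of 0.33. Gas5 stood at 106, 143 and 127 CPM with sgRosa against 178, 251 and 109 CPM with sgEgfr (log2 fold change 0.52, SE 0.30), and Snhg5 had 0.39 (SE 0.30).

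Elongation factors were positive in 7 of 9, with a median of 0.10, among them Eef1g at 0.41 (SE 0.26) and Eef1d at 0.33 (SE 0.21). Initiation factors were positive in 21 of 35, with a median of 0.07. Eif2b2, of the exchange factor for eIF2, had 0.37 (SE 0.18), and the scaffold Eif4g1 had -0.30 (SE 0.14). In this list the groups did not overlap in 5 genes, 2 higher in sgEgfr (Eif3e at 0.31, SE 0.15, and Eif3m at 0.39, SE 0.20) and 3 lower, Eif4g1 among them, against 3.76% of all genes higher and 3.85% lower in that way. Ribosome biogenesis genes were positive in 19 of 35, with a median of 0.03, and their lowest p-values belonged to Riok1 (-0.38, SE 0.23) and Rrp12 (-0.34, SE 0.22). Genes of the mitochondrial ribosome, a list added after the files were read, were positive in 59 of 77, with a median of 0.09, led by Mrpl39 (0.45, SE 0.22) and Mrpl34 (0.39, SE 0.21).

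The mTOR pathway list was positive in 10 of 28, with a median of -0.10, and 1 of the 28 was lower at an unadjusted p under 0.05, against 1.37% of all genes tested. That gene was Rragc, a GTPase that carries amino acid signals to mTOR, at 40.4, 31.1 and 27.6 CPM with sgRosa against 23.4, 20.7 and 26.1 CPM with sgEgfr (log2 fold change -0.50, SE 0.19, unadjusted p = 0.0359 by edgeR). Mtor itself stood at 30.8, 33.3 and 38.7 CPM and at 26.2, 24.4 and 30.4 CPM (log2 fold change -0.34, SE 0.17). These were the 2 of the 28 with every sgEgfr sample below every sgRosa sample, against 3.85% of all genes. The Rps6k kinases, some of which phosphorylate the protein of Rps6, were positive in 5 of 10, with Rps6ka6 at 1.52 (SE 0.63, unadjusted p = 0.0443 by edgeR) from few counts and Rps6ka5 at -0.33 (SE 0.21).

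**Figure D5:**
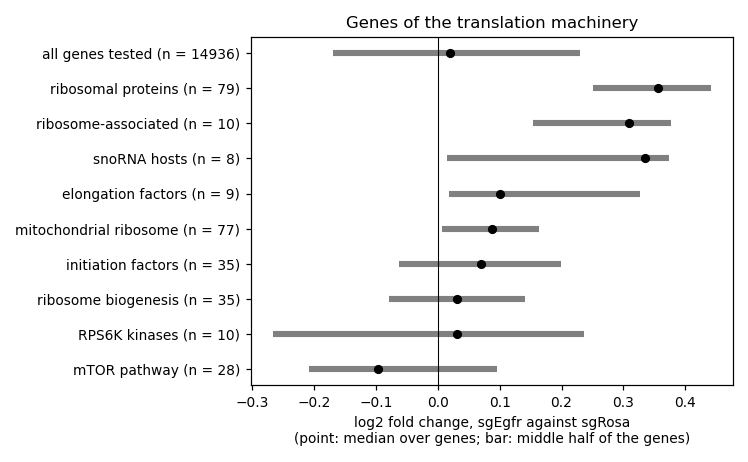
Log2 fold change, sgEgfr against sgRosa, over lists of translation genes; points are medians over genes and bars span the middle 50% of the genes of a list. The medians of ribosomal protein (0.36), ribosome-associated (0.31) and snoRNA host genes (0.33) lie furthest from the 0.02 of all genes tested.

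Other cell types and sample quality also differed between samples. The 15 microglia markers took 0.0180% to 0.0366% of counts in sgRosa and 0.0229% to 0.0499% in sgEgfr, with 15 of 15 positive, a median log2 fold change of 0.44 and the highest value in sgEgfr 2. Of 15 neuron markers 14 were tested and all 14 were positive with a median of 0.58, at 0.0417% to 0.0583% and 0.0581% to 0.0649%, with Slc17a7 at 0 in a library. Endothelial markers were positive in 14 of 15 with a median of 0.58, at 0.0369% to 0.0463% and 0.0396% to 0.0451%. Ependymal markers were positive in 10 of 10 with a median of 1.51, at 0.0185% to 0.0750% and 0.0380% to 0.161%, with Tmem212 and Pifo at 0 in a library. Their high share in sgEgfr was that of sgEgfr 3. sgEgfr 1 and 2, at 0.0380% and 0.0408%, lay below sgRosa 3+4, at 0.0750%. The medians of these 4 lists were above the 0.36 of the ribosomal protein genes. Oligodendrocyte markers were positive in 6 of 15 with a median of -0.10. Their share was lowest in sgRosa 1 and highest in sgEgfr 2, as for the ribosomal protein genes, but the order between these ends differed. The oligodendrocyte share of sgRosa 2 lay above that of sgRosa 3+4, sgEgfr 1 and sgEgfr 3. Its ribosomal protein share lay below all of these. Precursor markers were positive in 7 of 10 with a median of 0.30, at 0.1005% to 0.162% and 0.113% to 0.174%. Astrocyte markers were positive in 13 of 20 with a median of 0.18. Choroid plexus and blood genes took 0.00512% to 0.0591% and 0.00297% to 0.0765%, with Kl, Folr1, S100a8 and S100a9 at 0 in a library and 1 of 5 tested positive (median -0.06). Heat shock genes took 0.276% to 0.403% and 0.374% to 0.445%, with 12 of 15 positive and a median of 0.14. Mitochondrially encoded genes took 6.10% to 14.6% and 8.48% to 13.3%, with 6 of 9 tested positive (median 0.07) and COX2, ATP8 and ATP6 at 0 in a library. The part of these in the ribosomal protein values was not tested, and in bulk samples fewer cells of a type and less RNA per cell cannot be told apart.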

How the data were processed

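The authors deposited raw counts, 1 whole number per gene and library. The submitters' processing notes name mm10, with featureCounts 2.0.1, STAR 2.7.5c, edgeR 3.42.4, MultiQC 1.11, FastQC 0.11.9 and fastp 0.23.2. How reads matching several genes were counted, the strand setting and the annotation are not given in the sources used here. Counts of genes with near copies are therefore uncertain. Genes were kept with filterByExpr (minimum count 10, total 15), scaled with TMM and tested with glmQLFTest in edgeR 4.0.16 (R 4.3.3), with 3 samples against 3 and the guide as the only term. Benjamini-Hochberg adjustment ran over all 14936 genes tested, with a call at an adjusted p under 0.05. The script was tested on simulated counts. CPM values are scaled with TMM, and shares are not. Wilson intervals and floors (3 counts) cover counting error only. The intervals of the log2 fold changes come from the edgeR fit and include the spread between samples.

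The members and lists were chosen with earlier results of these data known. The values of 1 member are not reported here. The genes named were Egfr, of the members the 5 with the smallest p, the 4 largest and 4 smallest fold changes, the 4 highest and 2 lowest levels per coding length, Rplp0, Rplp1, Rplp2, Rpsa and the tested pairs, and up to 4 genes of each other list by p. Rpl28 and Rpl27a, whose groups did not overlap, and the short genes Rpl38 and Rps29 were described besides these. Coding lengths came from GENCODE M21 and start sites from RefSeq (GRCm38.p6). Alternatives were RLE factors, library totals, TMM without the members and mitochondrially encoded genes, other filters, DESeq2 1.42.0, limma-voom (limma 3.58.1), 7 separate libraries, the replicate number as a block, libraries left out, another threshold and other member sets. Permutation tests used scipy 1.17.1, and figures matplotlib 3.10.9.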

Additional observations from a re-analysis of the deposited data

How the results depend on the processing

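No gene, and so none of the 79, was called at an adjusted p under 0.05 in any of the 20 other settings, or under 0.1 in the first fit. The median log2 fold change of the 79 genes was 0.20 to 0.45 with each library left out in turn, 0.54 without sgRosa 3 and 4, and 0.12 without sgRosa 1 and sgEgfr 2. Their summed share kept the direction, with a difference of 0.0535 to 0.168 points. The number of genes at an unadjusted p under 0.05 was 401, and 685 with no filter, 793 with limma-voom and quality weights, 500 with DESeq2, 418 with limma-voom, 960 without sgRosa 3 and 4, 236 without sgRosa 1, 684 without sgEgfr 3 and 150 without sgRosa 1 and sgEgfr 2. These count both directions. Higher in sgEgfr at that threshold were 196 genes, 528 without sgRosa 3 and 4 and 256 without sgEgfr 3, and of the 79, 40 without sgRosa 3 and 4, 19 without sgEgfr 3, and 0 when sgRosa 1, sgRosa 2, sgEgfr 1 or sgEgfr 2 was left out.

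Whether the shared replicate numbers pair the samples could not be settled from these values. Deviations from the group means correlated at -0.11, 0.52 and 0.55 for numbers 1, 2 and 3. The values for numbers 2 and 3 were the highest of all pairs between the guides, while sgEgfr 1 correlated best with sgRosa 2, at 0.26. Deviations within a guide are tied to each other through its mean, so these correlations are not independent. With the replicate block the median was 0.38, with 75 genes positive, 0 called and 705 of all genes at an unadjusted p under 0.05 (710 over 7 libraries).

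Of 47 named genes followed through the settings, 38 kept their sign in every setting that tested them. Rpl28, Rpl27a, Rpl38, Rps29, Eif3e and Eif3m were not among the 47. With libraries left out in turn, Egfr ranged from -0.55 to 0.27, Rps28 from -0.45 to 0.16, Rps12 from -0.28 to 0.12, Rps21 from -0.22 to 0.11, Rplp2 from -0.0454 to 0.0854, Rps4l from -0.0416 to 0.16, Rpl22 from -0.0065 to 0.20 and the ratio of Rps4l to Rps4x from -0.31 to 0.13. Egfr was 0.18 with limma-voom, 0.06 with the replicate block, 0.042 with the replicate block over 7 libraries, 0.0191 without sgRosa 3 and 4 and 0.46 without sgRosa 1 and sgEgfr 2. Without sgRosa 1 and sgEgfr 2, Rps12 was 0.0689, Rps21 0.0322, Rplp2 -0.0035, Rps27l -0.006 and Snhg5 -0.0712. Rps28 was 0.23 and Rps21 0.13 with quality weights, Rps12 was 0.0297 with limma-voom and 0.0545 without sgRosa 3 and 4, and Rplp2 was -0.0058 with 7 libraries. The cause was not tested.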
